A study of Mus musculus with 12 samples.

Results

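The response to interleukin-4 (IL-4) of mouse bone-marrow-derived macrophages labelled CKO was measured by RNA sequencing. The comparison takes 4 of the 12 libraries of the series, chosen by their labels: 2 of CKO macrophages given IL-4 (20 ng/mL for 24 h) and 2 of CKO macrophages left untreated. The other 8 libraries, which are CKO macrophages given interferon-gamma (IFN-γ, 100 U/mL for 24 h) and WT macrophages given IL-4, given IFN-γ or left untreated, entered the shared estimate of spread, and the WT libraries also serve for a test of the difference between genotypes. All groups are cells grown from marrow precursors in culture, and none carries a further allele or agent that the labels name. The labels do not say which gene CKO refers to, which promoter or Cre line drives it, what the shared library numbers 1 and 2 stand for, or whether the 2 libraries of each group are separate mice. The p-values therefore speak for the scatter among these libraries only, part of which could be technical. IRF8, an interferon regulatory factor, appears in the title of the series.

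IL-4 is a cytokine of T helper cells, basophils and innate lymphoid cells. It binds a receptor made of IL-4Rα with the common gamma chain or with IL-13Rα1, and Janus kinases on the receptor then phosphorylate the transcription factor STAT6, which moves to the nucleus. Macrophages treated in this way are known for arginase, chitinase-like and resistin-like proteins, lectin receptors and cell fusion, and for a part in helminth infection, allergy and wound repair.

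Levels are CPM, counts relative to TMM-scaled library size, given for library 1 and then library 2 of each group. Fold changes are log2 values of IL-4 over untreated ± an approximate SE, with n = 2 libraries in each group throughout, from edgeR's quasi-likelihood test fitted to all 12 libraries. A gene is said to have risen or fallen, or to be called, when its Benjamini-Hochberg adjusted p over the 16292 genes tested was below 0.05. CPM is not scaled to transcript length, so levels are compared between libraries and not between genes.

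Totals ran from 21287725 to 32717379 counts per library. Of the 12, untreated CKO library 1 was the odd one. Its share of mitochondrial counts was 1.52%, against 2.12% to 3.25% in the other 11 libraries. Its share of Gm42418, a gene within ribosomal RNA sequence, was the highest at 1.28%. That share was also raised in untreated WT library 1 (1.05%) and IFN-γ WT library 1 (0.753%), against 0.0717% to 0.174% in the rest. The macrophage label was checked against macrophage markers, not all of which were deeply counted. Fcgr1 had 152 to 314 counts and C1qa had 180 to 305 counts in the 4 CKO libraries. Adgre1, which encodes F4/80, had 29876 and 32558 counts after IL-4, against 35008 and 32806 counts untreated, and Csf1r and Cd68 were counted as deeply, with 19378 counts of Cd68 in untreated library 1 as their lowest value. Lyz2, the lysozyme gene of macrophages, was low for such cells at 14.98 and 15.8 CPM in IL-4 CKO libraries, against 25.6 and 27.97 CPM in untreated CKO libraries, while IL-4 WT libraries held 7667 and 6519.8 CPM.

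IL-4 changed 3664 genes in CKO macrophages, which is 22.5% of those tested: 1828 rose (11.2%) and 1836 fell (11.3%). Of these, 646 rose and 558 fell by a log2 fold change of at least 1 in size. The median log2 fold change of all tested genes was 0.00. Counts of list members called below in the main fit are to be read against these shares of 11.2% and 11.3%. The shares do not apply to fits that leave out a library, because the number called over all genes moved in those fits as well. A list count that moved in such a fit is thus not particular to the list. Both IL-4 libraries lay on one side of both untreated libraries in 56.8% of tested genes, so a lack of overlap is common. The largest rises among well-counted genes were larger than the largest falls, with Retnla at 10.56 and Arg1 at 9.87 against Cd14 at −2.73 and Lama3 at −2.61. The number of calls rested on single libraries: it was 2031 without untreated library 1 and 1725 without IL-4 library 2.

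**Figure D1:**
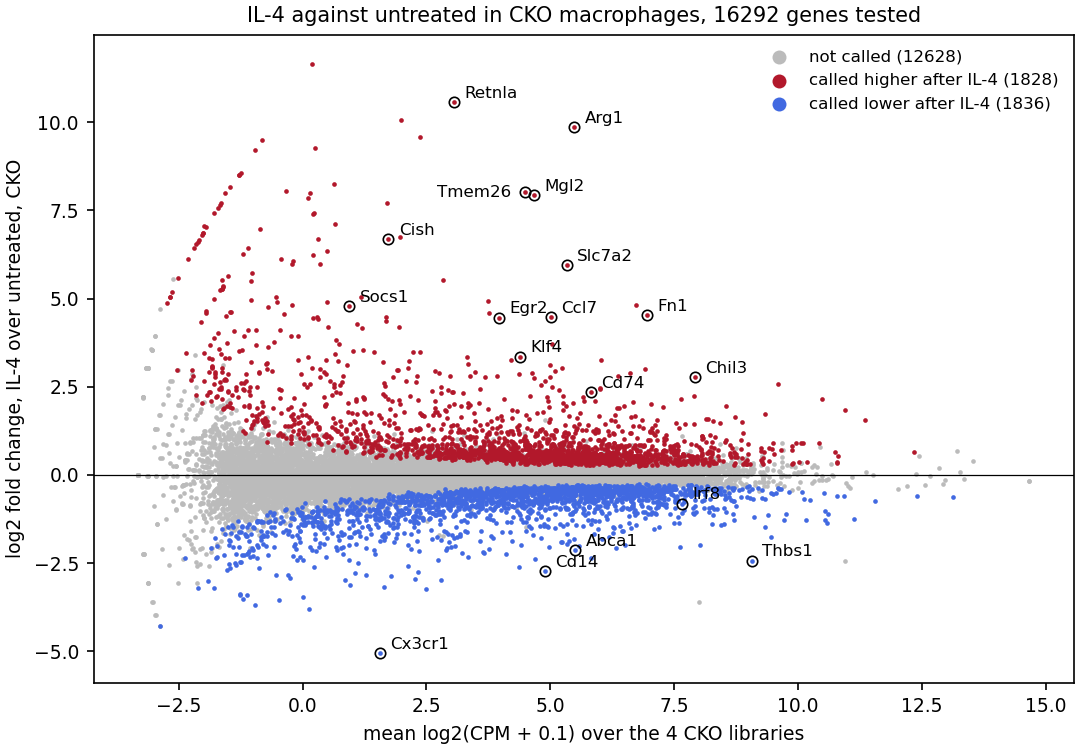
Log2 fold change of IL-4 over untreated CKO macrophages (vertical axis) against mean log2(CPM + 0.1) over the 4 CKO libraries (horizontal axis), 1 point per tested gene. Red points were called higher (1828) and blue points called lower (1836). Rises reach above 10 on the log2 scale, and the named fall of Cx3cr1 reaches −5.06.

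The genes of the receptor complex and of proximal signalling changed in both directions. Of 17 tested, 3 rose and 3 fell, with a median log2 fold change of −0.01. Counts this small do not stand apart from the 11.2% and 11.3% of all genes. Il4ra, the IL-4-binding receptor chain, was at 139 and 129 CPM after IL-4, against 149 and 157 CPM untreated, and was not called (log2 fold change −0.19 ± 0.09). Stat6 was at 208 and 200.2 CPM after IL-4, against 228 and 249.7 CPM untreated, and was not called either (log2 fold change −0.23 ± 0.09); its exons overlap those of Nab2 on the opposite strand, and without a stated strand setting reads of both cannot be told apart. Both genes were well counted in all 4 libraries. Jak2, a Janus kinase that acts with several cytokine receptors, was the clearest rise, at 153 and 139.7 CPM after IL-4, against 72.4 and 57.2 CPM untreated (log2 fold change 1.18 ± 0.11, edgeR adjusted p = 2.11e-05). Irs2, an adaptor that links the IL-4 receptor to PI3 kinase, also rose (log2 fold change 0.86 ± 0.16). Il13ra1, the chain that pairs with IL-4Rα in the receptor shared with IL-13, fell to 2.81 and 2.31 CPM after IL-4, against 10.7 and 8.02 CPM untreated (log2 fold change −1.86 ± 0.21, edgeR adjusted p = 7.23e-05). Ptpn6, which encodes the phosphatase SHP-1, fell as well (log2 fold change −0.54 ± 0.09). The calls of Ptpn2, a phosphatase of Janus kinases (log2 fold change 0.32 ± 0.11), and of Pik3r1, a regulatory subunit of PI3 kinase (log2 fold change −0.29 ± 0.08), were small. The call of Ptpn2 was lost when any 1 of the 4 CKO libraries was left out, and that of Pik3r1 was lost without untreated library 1 or either IL-4 library.

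The suppressors of cytokine signalling, which bind receptors or Janus kinases and damp their signal, rose in 4 of 8 members. Cish was at 33.6 and 24.6 CPM after IL-4, against 0.304 and 0.26 CPM untreated (log2 fold change 6.68 ± 0.35, edgeR adjusted p = 2.67e-07). Socs1 had 9.43 and 8.06 CPM after IL-4, against 0.38 and 0.26 CPM untreated (log2 fold change 4.79 ± 0.60, edgeR adjusted p = 0.000355). Socs2 was at 3.74 and 3.05 CPM after IL-4, against 0.683 and 0.288 CPM untreated (log2 fold change 2.85 ± 0.40, edgeR adjusted p = 0.000383). In all 3 genes the untreated libraries were below 1 CPM and the groups did not overlap, which held for 56.8% of all genes tested. Socs5 was called with a small rise (log2 fold change 0.39 ± 0.11) that was not past the test without untreated library 2 (adjusted p = 0.0922) or without IL-4 library 2 (0.155).

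Transcription regulators known to respond to IL-4 rose in 13 of 20 members and fell in 2, with a median log2 fold change of 1.23. Egr2, a zinc finger factor of alternatively activated macrophages, had 85.1 and 59.9 CPM after IL-4, against 3.95 and 2.71 CPM untreated (log2 fold change 4.46 ± 0.23, edgeR adjusted p = 2.06e-07). Klf4, a Krüppel-like factor of monocyte differentiation, had 65.2 and 68.1 CPM after IL-4, against 6.3 and 6.69 CPM untreated (log2 fold change 3.36 ± 0.12, edgeR adjusted p = 1.62e-08). Irf4, an interferon regulatory factor related to IRF8, had 60.01 and 53.3 CPM after IL-4, against 6.41 and 5.54 CPM untreated (log2 fold change 3.25 ± 0.15, edgeR adjusted p = 1.04e-07). For each of these 3 factors both IL-4 libraries lay far above both untreated libraries. Nfil3, a basic leucine zipper repressor, rose (log2 fold change 2.77 ± 0.15), as did Batf3, a partner of IRF factors in dendritic cells, from very low counts (log2 fold change 4.91 ± 0.35). Pparg, the lipid-sensing nuclear receptor, was at 76.6 and 67.5 CPM after IL-4, against 20.9 and 19.2 CPM untreated (log2 fold change 1.85 ± 0.11, edgeR adjusted p = 5.13e-07), and its coactivator gene Ppargc1b also rose (log2 fold change 2.14 ± 0.29). Bhlhe40, Tfec, Atf3 and Myc rose with log2 fold changes of 1.91, 1.26, 0.89 and 1.67. Maf, a basic leucine zipper factor, fell, with 263 and 265 CPM after IL-4, against 477 and 528 CPM untreated (log2 fold change −0.93 ± 0.10, edgeR adjusted p = 4.75e-05). Bhlhe41 was the other fall (log2 fold change −0.50 ± 0.16), and its call was lost without untreated library 2 or either IL-4 library.

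Irf8 (ENSMUSG00000041515.9, chromosome 8, 120736358 to 120756694, plus strand, GRCm38), which encodes the interferon regulatory factor named in the series title, was present in every CKO library and fell with IL-4. It had 169 and 139 CPM after IL-4, against 293 and 248 CPM untreated (log2 fold change −0.81 ± 0.11, edgeR adjusted p = 0.000388). As counts are summed over the gene, they say nothing of whether an exon is missing. Among 18 tested genes of a list of myeloid genes known to depend on IRF8, 4 rose and 5 fell, with a median of 0.01. Klf4, Cd74 and Ciita were among the rises, while Cx3cr1 and Il18 fell. Cx3cr1, the fractalkine receptor of resident macrophages and monocytes, had 0.485 and 0.44 CPM after IL-4, against 13.3 and 17.6 CPM untreated (log2 fold change −5.06 ± 0.26, edgeR adjusted p = 2.02e-07).

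Secreted markers of IL-4-treated macrophages rose in 12 of 18 tested members and fell in 2, with a median log2 fold change of 3.68. Retnla (ENSMUSG00000061100.3, chromosome 16, 48842551 to 48844461, plus strand), which encodes the resistin-like protein RELMα, had 386 and 226 CPM after IL-4, against 0.455 and 0 CPM untreated (log2 fold change 10.56 ± 0.56, edgeR adjusted p = 3.87e-06). All 12 of its untreated counts came from library 1, against 18847 counts over both IL-4 libraries. Chil3, which encodes the chitinase-like protein Ym1, had 693 and 571 CPM after IL-4, against 108 and 78.8 CPM untreated (log2 fold change 2.76 ± 0.24, edgeR adjusted p = 1.93e-05). Chil4, its close paralog, rose too (log2 fold change 3.16 ± 0.22), and reads of both may have been split between them. A pair of ribonuclease genes of the eosinophil family, Rnase2a (log2 fold change 9.57 ± 0.37) and Ear2 (4.48 ± 0.40), share that limit.

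Chemokines among the secreted markers were low without IL-4. Ccl22 and Ccl24, which act through CCR4 and CCR3, had few reads in untreated cells. Ccl22 had 540 counts over both IL-4 libraries, against 2 counts over both untreated libraries, a ratio of 262 with a 95% counting interval of 72.1 to 2166. Ccl24 was at 18.9 and 13.04 CPM after IL-4, against 1.18 and 0.606 CPM untreated (log2 fold change 4.20 ± 0.33, edgeR adjusted p = 4.66e-06). Ccl7, a monocyte attractant acting through CCR2, had 82.6 and 246 CPM after IL-4, against 5.46 and 9.29 CPM untreated (log2 fold change 4.47 ± 0.73, edgeR adjusted p = 0.00545). The IL-4 libraries of Ccl7 and of its neighbour in function Ccl12 (4.78 and 25.9 CPM after IL-4, against 0.152 and 0.721 CPM untreated) lay far apart, with library 2 the higher. Without untreated library 1 neither passed the test (adjusted p = 0.0561 for Ccl7 and 0.11 for Ccl12). Fn1, which encodes the matrix protein fibronectin, had 625 and 558 CPM after IL-4, against 26.9 and 24.5 CPM untreated (log2 fold change 4.53 ± 0.16, edgeR adjusted p = 1.4e-08), and Igf1, a growth factor of repair macrophages, rose less (log2 fold change 0.74 ± 0.11). Vegfa and Il10 were the falls of this list (log2 fold changes −1.09 ± 0.24 and −1.98 ± 0.50). Neither passed without IL-4 library 2, and Vegfa failed also without untreated library 1 and Il10 without untreated library 2.

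Surface markers rose in 10 of 17 tested members and fell in 3, with a median of 1.83. Mgl2 (ENSMUSG00000040950.13, chromosome 11, 70130329 to 70137550, plus strand), a galactose-type lectin also called CD301b, had 302 and 507 CPM after IL-4, against 2.35 and 1.04 CPM untreated (log2 fold change 7.94 ± 0.36, edgeR adjusted p = 2.87e-07). Clec10a, its paralog CD301a, had 77.8 and 113 CPM after IL-4, against 15.3 and 9.72 CPM untreated (log2 fold change 2.94 ± 0.24, edgeR adjusted p = 9.83e-06), and these genes are alike enough for reads to be misplaced between them. Mrc1, the mannose receptor CD206, had 3719 and 3786 CPM after IL-4, against 1053 and 1056 CPM untreated, where it was already abundant (log2 fold change 1.83 ± 0.09, edgeR adjusted p = 1.78e-07). Tfrc, the transferrin receptor, had 2924 and 3117 CPM after IL-4, against 682 and 668 CPM untreated (log2 fold change 2.16 ± 0.12, edgeR adjusted p = 3.63e-07). For Mrc1 and Tfrc the 2 libraries of each group lay close together and the groups far apart. Both ligands of the T cell inhibitory receptor PD-1 rose. Pdcd1lg2, which encodes PD-L2, had 584 counts over the IL-4 libraries, against 2 counts over the untreated ones, a ratio of 283 with a 95% counting interval of 78.0 to 2342. Cd274, which encodes PD-L1, had 106 and 62.5 CPM after IL-4, against 21.4 and 14.4 CPM untreated (log2 fold change 2.24 ± 0.25, edgeR adjusted p = 0.000138). Itgax, the integrin CD11c, and Clec7a, the β-glucan receptor Dectin-1, rose with log2 fold changes of 2.89 ± 0.28 and 1.94 ± 0.28. The falls were Stab1, a scavenger receptor that overlaps Nt5dc2 on the opposite strand (log2 fold change −1.24 ± 0.13), Emb (−1.14 ± 0.10) and Cd163 (−0.60 ± 0.19). The call of Cd163, the haemoglobin scavenger receptor, was lost when any 1 of the 4 CKO libraries was left out.

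Genes of arginine and polyamine metabolism rose in 10 of 20 members and fell in 2. Arg1 (ENSMUSG00000019987.8, chromosome 10, 24915221 to 24927484, minus strand), the cytosolic arginase that turns arginine into ornithine and urea, had 1207 and 1842 CPM after IL-4, against 2.96 and 0.49 CPM untreated (log2 fold change 9.87 ± 0.66, edgeR adjusted p = 2.1e-05). Slc7a2 (ENSMUSG00000031596.15, chromosome 8, 40862396 to 40922308, plus strand), a cationic amino acid transporter that brings arginine into macrophages, had 319.8 and 309 CPM after IL-4, against 5.12 and 4.99 CPM untreated (log2 fold change 5.96 ± 0.16, edgeR adjusted p = 2.36e-09). Ass1, which makes the arginine precursor argininosuccinate from citrulline, had 31.3 and 31.8 CPM after IL-4, against 2.47 and 3.66 CPM untreated (log2 fold change 3.34 ± 0.18, edgeR adjusted p = 3.08e-07). Import, resynthesis and breakdown of arginine each had a gene whose IL-4 libraries both lay far above its untreated ones. For resynthesis that gene was Ass1 alone. Asl, the next enzyme of that route, was not called, at 35.7 and 33.4 CPM after IL-4, against 35.8 and 34.8 CPM untreated (log2 fold change −0.03 ± 0.10). Gatm, the first enzyme of creatine synthesis from arginine, rose as well (log2 fold change 1.92 ± 0.11). Of the polyamine enzymes, Odc1, the ornithine decarboxylase, rose (log2 fold change 0.98 ± 0.17), and Smox and Paox, which oxidise polyamines, fell (−0.79 ± 0.13 and −0.50 ± 0.10). Reads of Paox overlap Echs1 on the opposite strand. Nos2, the inducible nitric oxide synthase that competes for arginine, had 1 and 2 counts after IL-4, against 0 and 2 counts untreated, too few to show a difference at this depth. Without IL-4 library 2, only 5 members of the list were called higher, and the calls of Srm, Sms, Oat, Slc7a1 and Amd1 were lost.

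**Figure D2:**
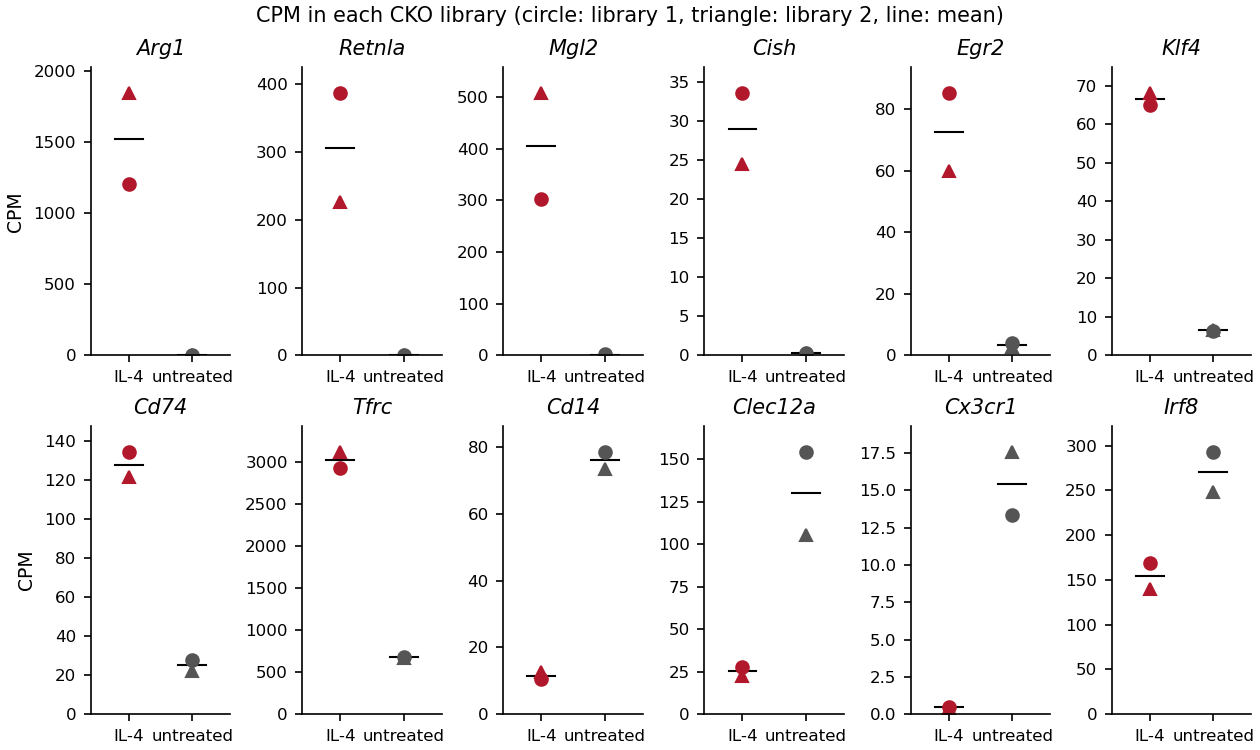
CPM of 12 genes in each CKO library (vertical axes, starting at 0), with IL-4 at the left and untreated at the right of each panel, circles for library 1, triangles for library 2 and a line at the mean of the pair. Arg1, Retnla, Mgl2, Cish, Egr2, Klf4, Cd74 and Tfrc lie higher after IL-4 in both libraries, and Cd14, Clec12a, Cx3cr1 and Irf8 lie lower in both.

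Promoter sequence is shown because STAT6, the factor activated by IL-4, is known to prefer palindromic sites in which TTC and GAA are spaced by 4 bases, written TTCNNNNGAA. Windows of 300 bases, from 250 bases before to 50 after each annotated start in RefSeq on GRCm38.p6, were searched for this motif, whose form is the same on both strands. It was present in 6.71% of 9864 tested genes with a window. The share was 10.05% of the 418 genes that rose by a log2 fold change of at least 1, 6.85% of the 365 that fell by as much and 6.54% of the 7305 not called. A spacing of 3 bases, preferred by other STAT factors, was held by 7.18%, 7.95% and 8.32% of the same 3 groups. Of 40 called rises among the largest rises and the secreted, surface and arginine genes, 32 had a window and 6 held the motif with 4 bases. The 5 with the largest rise are Retnla, Tmem26, Pdcd1lg2, Itgax and Clec7a, shown over 100 bases around each match, 5′ to 3′ on the strand of the gene, with the motif in capitals.
Retnla (GRCm38.p6 chr16:48842419-48842518, plus strand): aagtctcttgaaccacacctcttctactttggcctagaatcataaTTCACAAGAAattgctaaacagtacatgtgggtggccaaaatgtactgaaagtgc
Tmem26 (GRCm38.p6 chr10:68723496-68723595, plus strand): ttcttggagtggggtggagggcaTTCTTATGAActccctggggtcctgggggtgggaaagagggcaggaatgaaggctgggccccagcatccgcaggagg
Tmem26 (GRCm38.p6 chr10:68723660-68723759, plus strand): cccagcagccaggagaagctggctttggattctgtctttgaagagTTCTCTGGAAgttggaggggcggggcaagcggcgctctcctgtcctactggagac
Pdcd1lg2 (GRCm38.p6 chr19:29410792-29410891, plus strand): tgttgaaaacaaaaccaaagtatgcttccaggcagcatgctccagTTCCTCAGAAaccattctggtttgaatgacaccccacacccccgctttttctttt
Itgax (GRCm38.p6 chr7:128129378-128129477, plus strand): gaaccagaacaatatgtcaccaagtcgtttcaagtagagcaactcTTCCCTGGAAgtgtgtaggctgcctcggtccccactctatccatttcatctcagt
Clec7a (GRCm38.p6 chr6:129472856-129472955, minus strand): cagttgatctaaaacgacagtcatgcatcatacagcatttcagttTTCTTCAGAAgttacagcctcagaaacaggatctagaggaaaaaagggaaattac
Tmem26 holds the motif at 2 places, 227 and 41 bases before its start, and in Retnla it begins 145 bases before the start. In Pdcd1lg2, Itgax and Clec7a it begins 82, 127 and 131 bases before. A match is a description of the letters and not a bound site, and no match says only that these letters are not in the window.

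The 15 largest rises included genes outside the marker lists. Tmem26 (ENSMUSG00000060044.7, chromosome 10, 68723646 to 68782650, plus strand), a membrane protein gene used as a marker of beige fat cells, had 344 and 364 CPM after IL-4, against 1.973 and 0.865 CPM untreated (log2 fold change 8.01 ± 0.32, edgeR adjusted p = 9.88e-08). Flt1, the VEGF receptor VEGFR1, had 68.6 and 75.8 CPM after IL-4, against 2.69 and 2.05 CPM untreated (log2 fold change 4.94 ± 0.16, edgeR adjusted p = 9.43e-09). Atp6v0d2, a subunit of the vacuolar proton pump, had 691 and 456 CPM after IL-4, against 26.7 and 14.6 CPM untreated (log2 fold change 4.80 ± 0.31, edgeR adjusted p = 2.98e-06). In each of the 3 the lower IL-4 library was far above the higher untreated one. Lipn, a lipase family gene, Flrt2, a fibronectin leucine-rich repeat membrane protein, and Dhrs9, a retinol dehydrogenase, rose by 4.60, 3.70 and 3.26 on the log2 scale.

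The 15 largest falls among well-counted genes were of varied function. Cd14, the lipopolysaccharide co-receptor, had 10.4 and 12.5 CPM after IL-4, against 78.5 and 73.5 CPM untreated (log2 fold change −2.73 ± 0.13, edgeR adjusted p = 1.01e-07). Lama3, a laminin subunit, had 8.74 and 7.76 CPM after IL-4, against 52.3 and 48.7 CPM untreated (log2 fold change −2.61 ± 0.12, edgeR adjusted p = 8.24e-08). Thbs1, the matrix protein thrombospondin-1, had 320.3 and 163 CPM after IL-4, against 1608 and 985 CPM untreated (log2 fold change −2.43 ± 0.37, edgeR adjusted p = 0.00187). In these genes both IL-4 libraries were below both untreated libraries. The C-type lectins Clec12a, an inhibitory receptor, and Clec4n, the fungal receptor Dectin-2, fell (log2 fold changes −2.37 ± 0.18 and −2.03 ± 0.20). Pilra, an inhibitory receptor whose locus overlaps Zcwpw1, and Arap3, a regulator of small GTPases, fell by about as much (−2.31 ± 0.15 and −2.24 ± 0.14). Cd5l, a macrophage-secreted scavenger protein, Hpgd, which degrades prostaglandins, Bmf, a pro-apoptotic BCL2 relative, Marcksl1, a substrate of protein kinase C, and the genes Adgb, Slc16a9 and Cd4 complete the largest falls, between −2.38 and −2.05. Abca1, the cholesterol exporter, was also among them (−2.12 ± 0.61), but was not past the test without untreated library 1 (adjusted p = 0.268) or IL-4 library 2 (0.212).

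**Figure D3:**
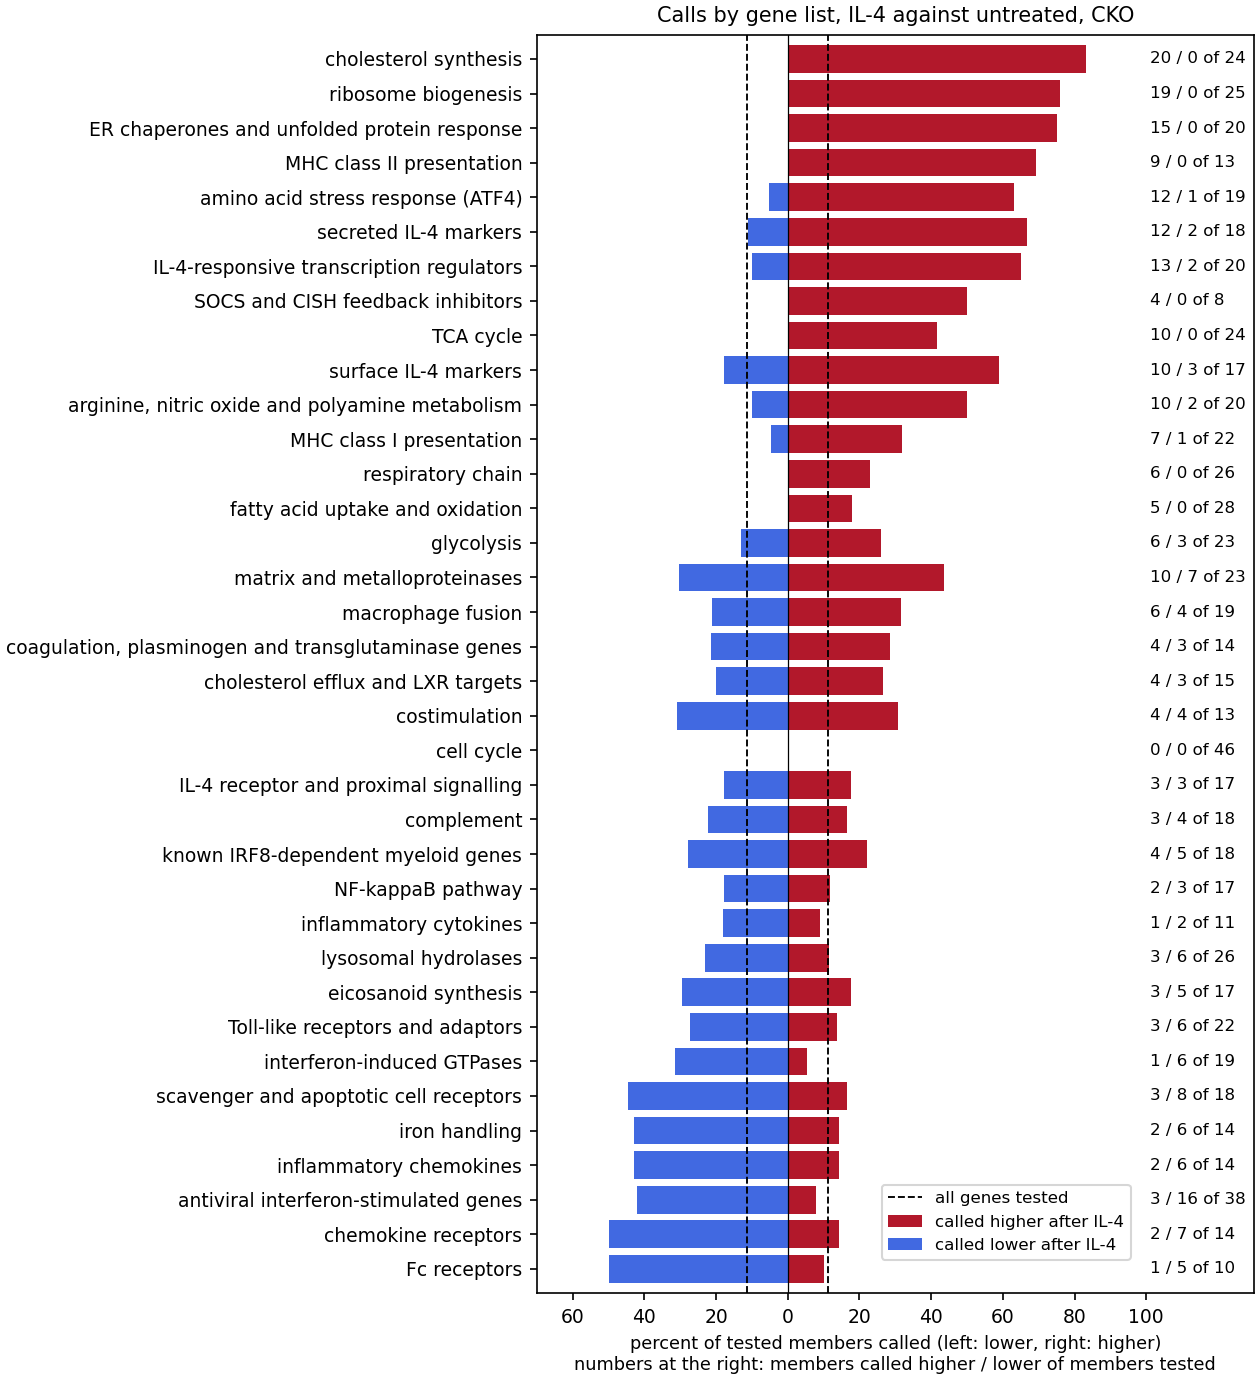
Percent of the tested members of each of 36 gene lists called higher (red, to the right) or lower (blue, to the left) after IL-4 in CKO macrophages, with the counts at the right edge. Dashed lines mark the shares over all genes tested, 11.2% higher and 11.3% lower. Cholesterol synthesis has the highest share called higher, at 20 of 24, and chemokine receptors and Fc receptors the highest shares called lower, at 7 of 14 and 5 of 10.

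Biosynthetic lists stood well above the background share of rises. Of 24 tested genes of cholesterol synthesis, 20 rose, with a median log2 fold change of 0.62. Mvd, the mevalonate diphosphate decarboxylase, had 63.8 and 60.6 CPM after IL-4, against 25.3 and 29.2 CPM untreated (log2 fold change 1.19 ± 0.13, edgeR adjusted p = 6.34e-05). Dhcr7, the last enzyme on the route to cholesterol, Cyp51, a lanosterol demethylase that overlaps Akap9, and Hmgcs1, which makes HMG-CoA, rose less (log2 fold changes 0.93 ± 0.17, 0.67 ± 0.11 and 0.58 ± 0.10). Only 9 of the 24 were called without untreated library 1, and 9 without IL-4 library 2.

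Of 20 genes of endoplasmic reticulum chaperones and the unfolded protein response, 15 rose, with a median of 0.57. Pdia4, a protein disulphide isomerase, had 488 and 569 CPM after IL-4, against 90.9 and 132 CPM untreated (log2 fold change 2.25 ± 0.16, edgeR adjusted p = 2.18e-06). Creld2, Pdia6 and Hspa5, the last encoding the chaperone BiP, rose with log2 fold changes of 1.21 ± 0.15, 0.93 ± 0.13 and 0.72 ± 0.11. Between 12 and 15 members were called when any 1 of the 4 CKO libraries was left out.

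Of 19 genes of the ATF4 amino acid response, 12 rose and 1 fell, with a median of 1.11. Phgdh, the first enzyme of serine synthesis, had 29.5 and 43.2 CPM after IL-4, against 5.54 and 10.8 CPM untreated (log2 fold change 2.14 ± 0.34, edgeR adjusted p = 0.00148). Asns, the asparagine synthetase, Atf4 itself and Atf5, which overlaps Nup62, rose (log2 fold changes 1.18 ± 0.22, 0.70 ± 0.10 and 1.18 ± 0.22). Without IL-4 library 2, 6 were called higher, and the single fall was lost without untreated library 1 or IL-4 library 2. Of 25 genes of ribosome biogenesis, 19 rose, with a median of 0.79. Nop16, a nucleolar protein gene, had 17.6 and 24.8 CPM after IL-4, against 6.64 and 11.3 CPM untreated (log2 fold change 1.23 ± 0.24, edgeR adjusted p = 0.00441), and Rrp12, an export factor of pre-ribosomes, had 24.8 and 40.6 CPM after IL-4, against 9.53 and 17.4 CPM untreated (log2 fold change 1.27 ± 0.26, edgeR adjusted p = 0.00673). In both genes library 2 was higher than library 1 within each group. The count of ribosome biogenesis genes called was 5 without untreated library 1 and 2 without IL-4 library 2, and Rrp12 was not past the test in the fit without IL-4 library 2 (adjusted p = 0.0535).

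None of 46 tested cell cycle genes was called by edgeR in the main fit, which did not pair libraries by number. Of these, 3 had an unadjusted p below 0.05, all higher after IL-4, and DESeq2 called 2 higher. Mki67, the proliferation antigen Ki-67, had 907 and 1159 CPM after IL-4, against 642 and 1104 CPM untreated, so that the groups overlapped, with the IL-4 library the higher of the 2 libraries of either number. With no filter on low counts, 15 members were called higher. Untreated library 1 was the lowest of the 4 for this list, and 28 members were called higher in the fit without untreated library 2, where it stands alone, and 6 without IL-4 library 1. The part of library 1's lower mitochondrial share in these results was not tested.

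**Figure D4:**
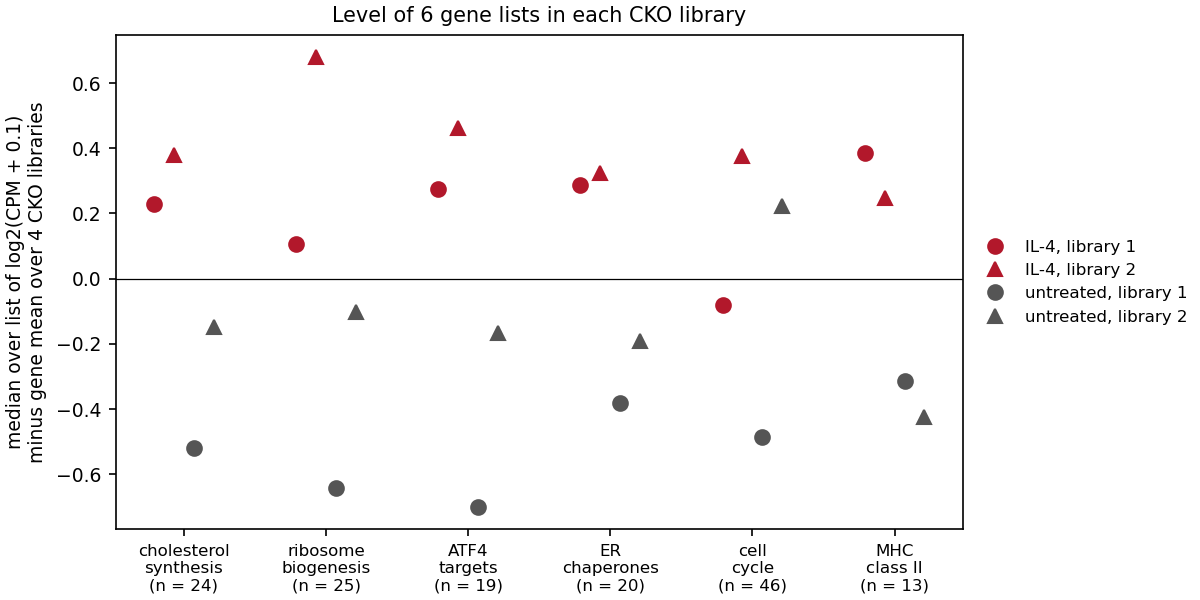
Median over each of 6 gene lists of log2(CPM + 0.1) minus the gene's mean over the 4 CKO libraries (vertical axis), with IL-4 libraries in red and untreated libraries in grey, circles for library 1 and triangles for library 2. Both IL-4 libraries lie above both untreated libraries in 5 lists. In the cell cycle list they overlap, with IL-4 library 1 at −0.08 below untreated library 2 at 0.22. Between libraries of the same number, the IL-4 one is the higher in that list, at −0.08 against −0.49 and 0.38 against 0.22.

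In central metabolism, rises were smaller. The shares to set these counts against are 11.2% higher and 11.3% lower over all genes tested. Of 24 tricarboxylic acid cycle genes, 10 rose, with a median of 0.26, among them Aco1, a cytosolic aconitase and iron sensor (log2 fold change 0.69 ± 0.08). The count was 3 without untreated library 1 and 1 without IL-4 library 2. Of 26 respiratory chain genes, 6 rose, among them Atp5b, an ATP synthase subunit, and Uqcrc1, a complex III subunit (log2 fold changes 0.64 ± 0.11 and 0.52 ± 0.09), and 2 were called without IL-4 library 2. Of 23 glycolysis genes, 6 rose and 3 fell. Ldha, the lactate dehydrogenase, had 550.4 and 639 CPM after IL-4, against 314 and 401 CPM untreated (log2 fold change 0.73 ± 0.12, edgeR adjusted p = 0.00133), and Slc16a1, a lactate transporter, rose with it (1.09 ± 0.20), while Aldoc, an aldolase, fell (−1.40 ± 0.11). The number of glycolysis genes called higher was 3 without untreated library 1 or IL-4 library 2, and 10 without untreated library 2.

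Of 28 genes of fatty acid uptake and oxidation, the process often named for IL-4-treated macrophages, 5 rose, against the 11.2% of all genes. The number called higher was 3 without untreated library 1 or 2 or IL-4 library 1, and 3 were called lower without untreated library 2. Fabp4, a fatty acid binding protein and known target of PPARγ, had 102 and 59.5 CPM after IL-4, against 18.8 and 10.1 CPM untreated (log2 fold change 2.49 ± 0.30, edgeR adjusted p = 0.000227). Etfa, an electron carrier subunit for fatty acid oxidation, rose by less (0.58 ± 0.10), and Cd36, the fatty acid translocase, was called (0.54 ± 0.14) but lost without untreated library 2 or either IL-4 library. Targets of the sterol receptor LXR moved both ways, with 4 of 15 higher and 3 lower. The exporter Abcg1 had 106 and 65.4 CPM after IL-4, against 16.3 and 8.88 CPM untreated (log2 fold change 2.78 ± 0.32, edgeR adjusted p = 0.000186), while Mylip, which degrades the LDL receptor, fell (−1.46 ± 0.21). Without untreated library 1, the LXR list held 2 genes called higher and 1 lower. The number called higher was also 2 without untreated library 2, and 1 was called lower without IL-4 library 2. In eicosanoid synthesis 3 of 17 genes rose and 5 fell. Ptgs1, the constitutive cyclooxygenase, had 199.6 and 172 CPM after IL-4, against 77.6 and 68.9 CPM untreated (log2 fold change 1.34 ± 0.10, edgeR adjusted p = 3.32e-06), and Ptger2, a receptor for prostaglandin E2, rose (1.41 ± 0.19). Pla2g7, which hydrolyses platelet-activating factor, and Hpgds, the prostaglandin D synthase, fell (−1.41 ± 0.19 and −1.04 ± 0.11). Without untreated library 2, 5 eicosanoid genes were called higher.

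Most transcripts of class II antigen presentation rose. The summed level of the list overlapped between the groups, at 2184 to 2703 CPM after IL-4, against 1902 to 2383 CPM untreated. Cd74 and H2-Ab1, given below, were a small part of that sum. Of 13 tested genes of MHC class II presentation, 9 rose, with a median of 0.68, and between 7 and 9 rose when any 1 of the 4 CKO libraries was left out. Cd74, the invariant chain, had 134 and 121 CPM after IL-4, against 27.8 and 22.3 CPM untreated (log2 fold change 2.35 ± 0.12, edgeR adjusted p = 2.48e-07). H2-Ab1, a class II beta chain, had 17.3 and 14.8 CPM after IL-4, against 5.39 and 4.82 CPM untreated (log2 fold change 1.66 ± 0.17, edgeR adjusted p = 4.07e-05). Ciita, the class II transactivator that overlaps Dexi, and H2-DMa, a peptide exchange subunit that overlaps Brd2, rose by 2.17 and 2.05 on the log2 scale. Of 14 dendritic cell markers tested, 6 rose and 1 fell, Itgax and Batf3 among the rises. The summed level of these markers was 389 to 485 CPM after IL-4, against 199 to 229.8 CPM untreated. Itgax, also among the surface markers above, carries that rise. It had 313 and 228 CPM after IL-4, against 44.7 and 28.4 CPM untreated. Zbtb46, a transcription factor of classical dendritic cells, had 40 and 72 counts after IL-4, against 16 and 21 counts untreated. Xcr1 and Clec9a, which mark cross-presenting dendritic cells, had 21 to 31 and 2 to 8 counts in the 4 libraries, and Flt3, the receptor for their growth factor, had 4 to 27. Ccr7 and Fscn1, of migrating dendritic cells, had at most 2. The number of dendritic cell markers called higher was 3 without untreated library 2. Of 22 class I presentation genes, 7 rose and 1 fell. Psmb10, an immunoproteasome subunit, had 85.3 and 64.2 CPM after IL-4, against 26.00 and 20.6 CPM untreated (log2 fold change 1.68 ± 0.15, edgeR adjusted p = 1.36e-05), and Tapbpl, a peptide editor, rose (0.95 ± 0.11). The number of class I genes called lower was 6 without untreated library 2 and 7 without IL-4 library 1. Among 13 costimulation genes, 4 rose, including Cd40 (2.56 ± 0.19) and both PD-1 ligands, and 4 fell, including Icosl, the ICOS ligand (−1.58 ± 0.20). Without untreated library 1 or IL-4 library 2, 2 were called lower.

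Interferon-stimulated antiviral genes fell more often than they rose: 16 of 38 tested fell and 3 rose, with a median log2 fold change of −0.38. Oas2, a sensor of double-stranded RNA, had 3.33 and 2.34 CPM after IL-4, against 17.2 and 13.2 CPM untreated (log2 fold change −2.42 ± 0.23, edgeR adjusted p = 2.67e-05). Rtp4, an interferon-induced chaperone, had 2.63 and 1.03 CPM after IL-4, against 11.8 and 9.83 CPM untreated (log2 fold change −2.59 ± 0.31, edgeR adjusted p = 0.000195). Usp18, which removes ISG15 and blocks the interferon receptor, went the other way, with 9.57 and 8.91 CPM after IL-4, against 2.88 and 2.6 CPM untreated (log2 fold change 1.76 ± 0.13, edgeR adjusted p = 3.74e-06). Without IL-4 library 2, 8 were called lower, and without IL-4 library 1, 1 was called higher. Of 19 interferon-induced GTPases, 6 fell and 1 rose. Gbp8 and Gbp9, guanylate-binding proteins close enough in sequence to share reads, fell (−2.10 ± 0.21 and −2.12 ± 0.19), while Gvin1, a very large GTPase, had 179 and 122 CPM after IL-4, against 31.6 and 23.97 CPM untreated (log2 fold change 2.44 ± 0.19, edgeR adjusted p = 6.36e-06). The number of these GTPases called lower was 3 without untreated library 1 and 2 without IL-4 library 2.

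Genes of microbial sensing and inflammation changed in both directions, where 11.2% of all genes rose and 11.3% fell, and counts as small as those of the NF-κB and cytokine lists do not stand apart from these shares. Of 22 Toll-like receptors and adaptors, 6 fell and 3 rose. Tlr2, the receptor for bacterial lipopeptides, had 9.29 and 10.2 CPM after IL-4, against 38.9 and 32.01 CPM untreated (log2 fold change −1.86 ± 0.13, edgeR adjusted p = 2.16e-06). Tlr13, which senses bacterial ribosomal RNA in mice, and Tlr5, which senses flagellin, fell with Cd14 (−1.04 ± 0.12 and −1.64 ± 0.22). In the NF-κB pathway 2 of 17 genes rose and 3 fell. Nfkbiz, a nuclear IκB protein, had 2.81 and 1.96 CPM after IL-4, against 12.8 and 8.54 CPM untreated (log2 fold change −2.16 ± 0.26, edgeR adjusted p = 0.000126), and Nfkbie, another IκB, fell (−1.02 ± 0.17). Without untreated library 2, 6 were called lower, and without any of the other 3 libraries 1 was called higher. Of 11 inflammatory cytokines, 2 fell and 1 rose, with Il18 at 3.36 and 2.7 CPM after IL-4, against 8.39 and 6.17 CPM untreated (log2 fold change −1.26 ± 0.20, edgeR adjusted p = 0.00105). The rise was that of the macrophage growth factor Csf1, which was lost without untreated library 1 or IL-4 library 2, and 1 cytokine was called lower without IL-4 library 2.

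Inflammatory chemokines fell in 6 of 14 members and rose in 2, with a median of −0.95. Ccl3, a ligand of CCR1, had 13.2 and 17.3 CPM after IL-4, against 49.1 and 55.9 CPM untreated (log2 fold change −1.78 ± 0.32, edgeR adjusted p = 0.00385), and Cxcl16 and Cxcl14 fell too (−1.88 ± 0.24 and −1.17 ± 0.15). Ccl9, a macrophage chemokine found in mice, was abundant and rose (0.58 ± 0.12). Without untreated library 1 or IL-4 library 2, 1 was called higher. Of 14 chemokine receptors and related migration receptors, 7 fell and 2 rose. S1pr1, the receptor for sphingosine 1-phosphate, had 21.3 and 24.00 CPM after IL-4, against 69.8 and 73.2 CPM untreated (log2 fold change −1.66 ± 0.12, edgeR adjusted p = 2.4e-06), and Fpr1, the formyl peptide receptor, had 1.04 and 0.703 CPM after IL-4, against 5.5 and 4.33 CPM untreated (log2 fold change −2.50 ± 0.25, edgeR adjusted p = 3.8e-05). Together with the fall of Cx3cr1 above, the falling receptors outnumbered the rising ones whichever of the 4 CKO libraries was left out, at 6 or 7 lower and 2 higher.

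Falls outnumbered rises among scavenger, Fc and related receptors, with many members not called. Of 18 scavenger and apoptotic cell receptors and their bridging proteins, 8 fell and 3 rose, although 1 was called higher without untreated library 2 or either IL-4 library. Gas6, which bridges dying cells to receptors of the TAM family, had 544 and 532 CPM after IL-4, against 1288 and 1323 CPM untreated (log2 fold change −1.28 ± 0.12, edgeR adjusted p = 1.77e-05), and Colec12, a collectin receptor, fell (−0.98 ± 0.11). Of 10 tested genes in a list of Fc receptors and related genes, 5 fell and 1 rose. The summed level of that list overlapped between groups, at 1674 to 2000 CPM after IL-4, against 1653 to 1800 CPM untreated. The rise was Fcgr2b, the inhibitory IgG receptor, with 630.0 and 519 CPM after IL-4, against 204 and 208 CPM untreated (log2 fold change 1.48 ± 0.12, edgeR adjusted p = 5.17e-06). Pira2, an activating immunoglobulin-like receptor, and Fcrls, an Fc receptor-like gene, fell (−0.96 ± 0.11 and −0.91 ± 0.17), and 3 were called lower without untreated library 1 or IL-4 library 2. Of 18 complement genes, 3 rose and 4 fell, against 11.2% and 11.3% of all genes. C3, the central complement component, had 98.9 and 92.5 CPM after IL-4, against 41.4 and 35.9 CPM untreated (log2 fold change 1.31 ± 0.11, edgeR adjusted p = 8.24e-06). Without IL-4 library 1, 2 complement genes were called lower.

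In iron handling 2 of 14 genes rose and 6 fell, where 11.2% of all genes rose and 11.3% fell. Against the rise of the importer Tfrc stood a fall of Slc40a1, the iron exporter ferroportin, with 446 and 342 CPM after IL-4, against 1276 and 902 CPM untreated (log2 fold change −1.47 ± 0.16, edgeR adjusted p = 6.62e-05). Slc11a1, the phagosomal metal transporter NRAMP1, and Blvrb, a biliverdin reductase, fell (−0.73 ± 0.11 and −0.59 ± 0.11). The number called lower was 3 without IL-4 library 2, and the number called higher was 4 without untreated library 2 and 1 without either IL-4 library. Among 26 lysosomal hydrolases, 3 rose and 6 fell, and the rises do not stand apart from the 11.2% of all genes. The cathepsins Ctsl, with 1868 and 1905 CPM after IL-4, against 965 and 1029 CPM untreated (log2 fold change 0.92 ± 0.11, edgeR adjusted p = 0.000133), Ctsk (1.74 ± 0.27) and Ctsz, which overlaps Nelfcd (0.92 ± 0.10), were the rises. Without IL-4 library 2 edgeR called none of the 26 lower, with 3 at an unadjusted p below 0.05, and 2 were called lower without untreated library 1.

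Genes of cell fusion, known for the giant cells that IL-4 induces, rose in 6 of 19 members and fell in 4. Over all genes tested 11.2% rose and 11.3% fell, and the median of this list was 0.06. Cdh1, the adhesion protein E-cadherin, had 27.1 and 47.5 CPM after IL-4, against 0.228 and 0.433 CPM untreated (log2 fold change 6.75 ± 0.46, edgeR adjusted p = 3.66e-06). Ocstamp, a membrane protein needed for fusion of osteoclasts and giant cells, had 14.4 and 13.9 CPM after IL-4, against 0.759 and 0.519 CPM untreated (log2 fold change 4.49 ± 0.22, edgeR adjusted p = 1.54e-07). Dcstamp, its relative, and the hyaluronan receptor Cd44 rose by 1.78 and 1.18 on the log2 scale. The number called lower was 2 without untreated library 1 or IL-4 library 2. Of 12 osteoclast markers tested, 7 rose and 0 fell, with a median of 1.76. Itgb3 (3.02 ± 0.18), Atp6v0d2, Ocstamp, Dcstamp and Ctsk were among the rises, and Atp6v0d2 and Ocstamp belong to the fusion list as well. The summed level of osteoclast markers was 1015 to 1297 CPM after IL-4, against 522 to 536 CPM untreated. Atp6v0d2 made up most of that rise, with 691 and 456 CPM after IL-4, against 26.7 and 14.6 CPM untreated. The calcitonin receptor gene Calcr, which defines osteoclasts, had no count in any of the 4 libraries, and Oscar had at most 1.

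Matrix genes and proteases changed in both directions, with 10 of 23 higher and 7 lower, and 4 lower without untreated library 1. Mmp12, the macrophage elastase, had 1922 and 1889.5 CPM after IL-4, against 351 and 282 CPM untreated (log2 fold change 2.59 ± 0.19, edgeR adjusted p = 2.77e-06). Mmp13, a collagenase, had 61.7 and 75.2 CPM after IL-4, against 10.7 and 12.6 CPM untreated (log2 fold change 2.55 ± 0.16, edgeR adjusted p = 1.01e-06), and Lgals3, which encodes galectin-3, rose (1.57 ± 0.10). In all 3 the groups were well apart. Coagulation and plasminogen genes gave 4 rises and 3 falls among 14 tested, against 11.2% and 11.3% of all genes. The clotting factor genes F10 and F7 rose side by side, with F10 at 72.6 and 59.5 CPM after IL-4, against 10.5 and 9.29 CPM untreated (log2 fold change 2.74 ± 0.14, edgeR adjusted p = 1.78e-07), and F7 at 83.3 and 82.2 CPM after IL-4, against 14.99 and 16.2 CPM untreated (log2 fold change 2.41 ± 0.13, edgeR adjusted p = 3.53e-07). Plaur, the urokinase receptor, rose (1.34 ± 0.13), and F13a1, a transglutaminase subunit, fell with 172 and 208 CPM after IL-4, against 504 and 484 CPM untreated (log2 fold change −1.38 ± 0.11, edgeR adjusted p = 4.41e-06).

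In bulk RNA, fewer cells of a type and less RNA per cell cannot be told apart, and markers of other marrow-derived cells were counted for that reason. Of 24 macrophage markers, 3 rose and 9 fell, with 4 lower without IL-4 library 2, and their summed level was 22930.0 to 26700.0 CPM after IL-4, against 26710.0 to 29470.0 CPM untreated. Of 15 monocyte markers, 7 fell and 1, Fn1, rose, and Treml4, a marker of non-classical monocytes, had 5.06 and 3.37 CPM after IL-4, against 15.9 and 17.8 CPM untreated (log2 fold change −2.01 ± 0.19, edgeR adjusted p = 1.91e-05). The summed level of monocyte markers, which Fn1 carries, was 1039 to 1049 CPM after IL-4, against 889.8 to 946 CPM untreated. Of 19 neutrophil and precursor markers, 3 fell and 1, the secreted marker Chil3, rose, against 11.3% and 11.2% of all genes. The sum of these markers was 1036 to 1242 CPM after IL-4, against 843 to 1148 CPM untreated. Chil3 made up 693 and 571 CPM of it after IL-4, against 108 and 78.8 CPM untreated. The sum therefore does not speak for the other members. Ly6g had 1 to 6 counts per library. Neutrophil markers called lower numbered 9 without untreated library 2 and 1 without IL-4 library 1.

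Markers of other lineages were at or near 0 in some members and well counted in others. Of 22 lymphocyte markers, 4 were tested and 3 of these fell, among them Cd4 and Ighm, with a sum of 15.5 to 16.4 CPM after IL-4, against 37.6 to 46.96 CPM untreated. Ighm, the immunoglobulin heavy chain of B cells, had 226 and 337 counts after IL-4, against 601 and 664 counts untreated, whereas Cd3e, Cd3g and Trac had no count. Mast cell, basophil and eosinophil markers summed to 5.42 to 6.86 CPM after IL-4, against 3.40 to 5.16 CPM untreated, with Epx, Gata1 and Fcer1a at 0. Of 4 tested, 2 rose, which were Siglecf and Ear1, and 1 was called without untreated library 1 or IL-4 library 1. Erythroid and megakaryocyte markers gave 2 rises and 1 fall among 6 tested, with the haemoglobin gene Hbb-bs at 1 to 4 counts per library and a sum of 273 to 391 CPM after IL-4, against 242 to 256 CPM untreated, and 1 was called higher without untreated library 1 or IL-4 library 2. Vwf, the von Willebrand factor gene of platelets and endothelium, made up most of that sum after IL-4, with 8652 and 6182 counts after IL-4, against 2977 and 3744 counts untreated. Pf4, a platelet chemokine gene, had 2525 and 3036 counts after IL-4, against 3652 and 4480 counts untreated. Other members of the same list were far lower, with Gp1bb at 0 and Gp9 at 0 to 2 counts per library. Itga2b had 10 to 15 and Ppbp 38 to 111 counts per library. Stromal and endothelial markers gave 3 rises among 7 tested, Pecam1, Nes and Postn, with Dcn, Lum and Tek at 0 and a sum of 39.6 to 46.2 CPM after IL-4, against 15.7 to 19.5 CPM untreated. Pecam1, the adhesion protein CD31, had 333 and 479 counts after IL-4, against 59 and 51 counts untreated, and Kdr, the VEGF receptor VEGFR2, had 106 and 262 counts after IL-4, against 160 and 290 counts untreated. Postn, the matrix protein periostin, had 78 counts over both IL-4 libraries and none over both untreated ones, at least 25.2-fold higher when the untreated group is set at the floor of 3 counts. The part of other cell types in the changes described above was not tested.

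Whether the IL-4 response of CKO macrophages differed from that of WT macrophages was tested in the same fit, as the CKO response minus the WT response. The difference passed the test for 6 genes, 0.0368% of those tested: 4 with a more positive response in CKO (0.0246%) and 2 with a more negative one (0.0123%). At an unadjusted p below 0.05 there were 981 genes, and DESeq2 called 42. Most responding genes had responses of one sign: of 3202 called genes with a proper symbol, 3115 had a log2 fold change of the same sign in WT. A response that did not differ past the test is not shown to be equal.

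Acod1 (ENSMUSG00000022126.6, chromosome 14, 103046977 to 103056573, plus strand), which makes the antimicrobial metabolite itaconate, responded in opposite directions. In CKO macrophages it had 5.17 and 7.09 CPM after IL-4, against 4.25 and 3.63 CPM untreated, a log2 fold change of 0.65. In WT macrophages it had 2.12 and 1.76 CPM after IL-4, against 8.25 and 7.81 CPM untreated, a log2 fold change of −2.06 (difference 2.71 ± 0.23, edgeR adjusted p = 0.00136). With the IFN-γ libraries kept in the fit, the difference stayed past the test without any 1 of the 8 CKO or WT libraries compared. It was not called with only those 8 libraries in the fit, where edgeR called no gene for the difference. The rise in CKO alone was not past the test without untreated library 2 (adjusted p = 0.0502) or without IL-4 library 2 (0.135).

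Chil3 (ENSMUSG00000040809.10, chromosome 3, 106147554 to 106167564, minus strand), described above for its rise, rose less in CKO than in WT macrophages. In CKO libraries the levels are those given above, and in WT libraries it had 754 and 449 CPM after IL-4, against 12.4 and 10.98 CPM untreated. The log2 fold change was 2.76 in CKO and 5.69 in WT (difference −2.92 ± 0.33, edgeR adjusted p = 0.0165). The IL-4 libraries of both genotypes were at 449 to 754 CPM, whereas untreated libraries were at 78.8 to 108 CPM in CKO and 10.98 to 12.4 CPM in WT. The genotypes thus overlapped with IL-4 and lay apart without it.

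Prps1 (ENSMUSG00000031432.3, chromosome X, 140456613 to 140476140, plus strand), a phosphoribosyl pyrophosphate synthetase of nucleotide synthesis, had 73.3 and 62.1 CPM after IL-4, against 7.59 and 10.6 CPM untreated in CKO. It had 29.8 and 30.6 CPM after IL-4, against 14.4 and 14.5 CPM untreated in WT (difference 1.83 ± 0.23, edgeR adjusted p = 0.0183). Flrt2 (ENSMUSG00000047414.6, chromosome 12, 95692226 to 95785215, plus strand) had 112 and 123 CPM after IL-4, against 9.18 and 8.88 CPM untreated in CKO, and 261 and 251 CPM after IL-4, against 48.99 and 43.3 CPM untreated in WT (difference 1.23 ± 0.14, edgeR adjusted p = 0.0137). Flrt2 was lower in CKO than in WT under both conditions, with the larger ratio between genotypes untreated and the larger CPM difference after IL-4. Angptl2 (ENSMUSG00000004105.8, chromosome 2, 33216069 to 33247717, plus strand), a secreted angiopoietin-like protein, had 331 and 352 CPM after IL-4, against 38.03 and 47.1 CPM untreated in CKO, and 435 and 441 CPM after IL-4, against 119.6 and 118 CPM untreated in WT (difference 1.12 ± 0.16, edgeR adjusted p = 0.0487). Ermard (ENSMUSG00000036552.16, chromosome 17, 15041208 to 15090044, plus strand), an endoplasmic reticulum membrane protein gene, was lower after IL-4 in CKO, at 33.6 and 36.9 CPM, against 141 and 106 CPM untreated, and had 34.5 and 32.8 CPM after IL-4, against 46.9 and 43.1 CPM untreated in WT (difference −1.39 ± 0.20, edgeR adjusted p = 0.0487). For Ermard, untreated CKO stood apart from the other 3 groups. Except for Acod1, each of these calls was lost in at least 3 of the fits that left out 1 of the 8 libraries.

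**Figure D5:**
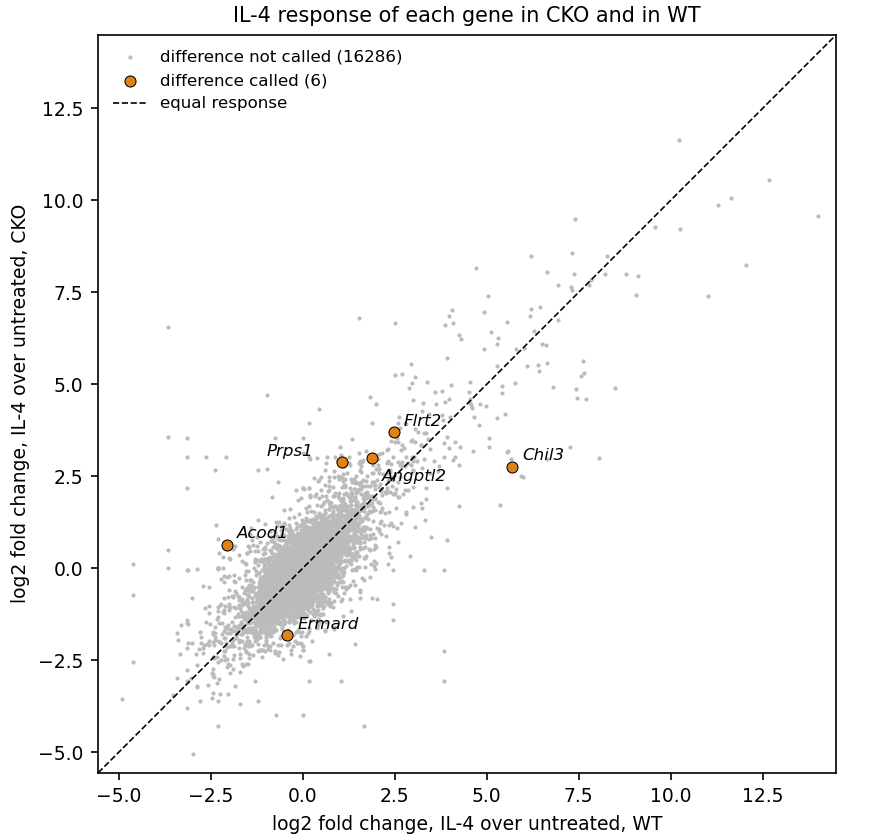
Log2 fold change of IL-4 over untreated in CKO macrophages (vertical axis) against that in WT macrophages (horizontal axis), 1 grey point per tested gene, with the dashed line at equal responses. The 6 orange points are genes whose responses differed past the test; Acod1 lies above 0 in CKO and below 0 in WT, and Chil3 lies below the line.

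The response of Irf8, with a log2 fold change of −0.81 in CKO and −0.42 in WT, did not differ past the test (difference −0.39 ± 0.16, edgeR adjusted p = 0.773). Irf8 had 169 and 139 CPM after IL-4, against 293 and 248 CPM untreated in CKO, and 70.9 and 65.7 CPM after IL-4, against 90.9 and 91.2 CPM untreated in WT. The cholesterol synthesis, ribosome biogenesis and ATF4 lists had medians of 0.62, 0.79 and 1.11 in CKO and of 0.11, 0.38 and 0.52 in WT. Untreated CKO library 1, which was the lowest of the 4 CKO libraries for all 3 lists, enters the CKO medians, and no difference between the genotypes was called for any of the genes named from them.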

How the data were processed

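Libraries of bone-marrow-derived mouse macrophages were made by an Illumina RNA Exome protocol, per the labels' protocols. The authors deposited whole-number gene counts, without normalization. The submitters' processing notes name TopHat2 2.0.13, HTSeq 0.6.1, Picard 1.97 and CASAVA 1.8.2 as tools, and GRCh38 and mm10 as builds with no role for either. Which annotation and strand setting the counting used is not given in the sources used here. Of 246 genes eligible for naming, 52 overlap exons of a gene on the opposite strand.

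Of 48440 genes, 22932 had no count, and edgeR's filterByExpr over the 6 groups kept 16292. edgeR 4.0.16 (R 4.3.3) fitted 6 group means to the 12 libraries by quasi-likelihood with TMM scaling, leaving 6 residual degrees of freedom, with Benjamini-Hochberg adjustment over all genes tested. The SE was derived from the fold change and the F statistic and is approximate. The steps were tested on simulated counts. No 2 libraries of a group agreed within sampling noise, with a chi-square per degree of freedom from 5.03 to 90.6. Positions came from GENCODE M21 on GRCm38 (48058 identifiers matched without their version), and promoter windows from RefSeq.

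The genes compared and the 45 gene lists were chosen with earlier results of these data known. Genes could be named if they were called, had a mean log2 CPM of at least 3, did not overlap between groups and were among the 15 largest rises or falls. The 4 called members of each list with the smallest adjusted p, all members of the first 6 lists, Irf8 and the genes whose response differed between genotypes were also eligible. Cell type markers given with their counts, Mki67 and Lyz2 were named outside this rule, after their values were seen. Some eligible genes are not reported here. Floors of 3 counts and exact 95% intervals cover counting error only. Alternatives were DESeq2 1.42.0, other scaling, filters, samples in the fit, a replicate block, a fold threshold and leaving out each library.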

Additional observations from a re-analysis of the deposited data

Results flagged for a closer look

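Genes stand here because the test of the difference between genotypes, the CKO response minus the WT response on the log2 scale, passed for them. The difference was 2.71 for Acod1, 1.83 for Prps1, 1.23 for Flrt2 and 1.12 for Angptl2, each with a more positive response in CKO. It was −1.39 for Ermard and −2.92 for Chil3, each with a more negative one. In every one of the 6 genes, both IL-4 libraries lay on one side of both untreated libraries in CKO. The same was true of 56.8% of all genes tested. Chil3 shares sequence with Chil4, whose difference of −2.40 ± 0.37 had the same direction and did not pass the test (edgeR adjusted p = 0.0673), and Ermard overlaps Tcte3 on the opposite strand. No explanation was tested.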

How the results depend on the processing

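The count of 3664 genes called in CKO became 1204 with a log2 fold change of at least 1 required as well and 1216 with only the 4 CKO libraries in the fit. It ran from 1725 to 5217 when 1 of the 8 CKO and WT libraries was left out, lowest without IL-4 CKO library 2 and highest without untreated CKO library 2. DESeq2 without untreated CKO library 1, an alternative chosen after seeing the data, called 1886. Of the 3664 genes, 1912 were also called without untreated library 1 and 1649 without IL-4 library 2, none in the opposite direction. The 6 genes whose response differed between genotypes became 42 with DESeq2, 38 with DESeq2 without untreated CKO library 1, 291 with no filter on low counts and 0 with only the 8 libraries compared, where edgeR gave 748 genes an unadjusted p below 0.05. That number ran from 1 to 329 when 1 library was left out, highest without untreated CKO library 2. The cause of these shifts was not tested. Where a group kept 1 library, its spread was taken from the other groups. The library numbers are not stated to pair samples. Same-numbered IL-4 and untreated libraries had deviations that correlated at 0.38 in CKO and 0.14 in WT. For IFN-γ CKO libraries the correlation was 0.16 with untreated and 0.22 with IL-4 CKO libraries. Between the IL-4 libraries of CKO and WT it was 0.07. With the number as a replicate block within genotype, 5463 genes were called in CKO and 85 for the difference, and 16 of 46 cell cycle genes were called higher. Other scaling left the counts at 3669 and 6.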
